A study of Arabidopsis thaliana with 12 samples.

Results

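Among 24332 features measured on 12 arrays of Arabidopsis seedlings, 168 were lowered by salt in the wild type Col-0 and stood higher in the line iU1-52 than in Col-0 on salt. A feature is the brightest probe of a sequence accession that was well above background on every array. The members were chosen by 2 differences of group means on the log2 scale. The mean of Col-0 in NaCl minus that of Col-0 in MS was at most -1, and the mean of iU1-52 in NaCl minus that of Col-0 in NaCl was at least 1. Both thresholds equal 2-fold, so these 2 differences are given below as a description and were not tested. The first threshold alone took 2513 features (10.3% of all) and the second alone 979 (4.02%), and the members were 6.69% and 17.2% of those features.

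RNA came from whole seedlings grown for 14 days on agar with MS medium that held 200 mM NaCl or no added NaCl. The 4 groups were iU1-52 in NaCl, iU1-52 in MS, Col-0 in NaCl and Col-0 in MS, each with 3 replicates from independent experiments and 1 array per replicate. iU1-52 is a single transgenic line, in which a double-stranded RNA construct silences GlcNA.UT1 and the other gene is disrupted by the mutation glcna.ut2-1. Col-0 is the wild-type ecotype and carries neither. The 2 GlcNA.UT genes encode the enzymes that make UDP-GlcNAc, the sugar donor with which N-glycans of secreted proteins begin. In MS, the 2 probes of GlcNA.UT2 were lower in iU1-52 than in Col-0, with log2 differences of -1.0 (limma adjusted p = 0.0073) and -2.20 (limma adjusted p = 2.9e-05). No probe was matched to GlcNA.UT1, which was not analysed here. Each replicate number was hybridized on 1 slide that held all 4 groups, with a fixed position for each group, so that slide position cannot be told apart from group.

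High salt limits water uptake, loads tissues with sodium and slows growth, and plants on salt commonly reduce transcripts for wall building, nutrient uptake and organ growth. Genes with reduced transcripts in the wild type under salt form the pool from which these members were drawn. Seedlings are a mixture of organs, and on these arrays a smaller share of a tissue and less RNA per cell cannot be told apart.

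The members spanned much of the range of signals on the arrays, with a median log2 signal of 10.23 in Col-0 in MS, against 10.90 for all features. Their median difference with salt was -1.51 in Col-0 and reached -6.14. Their median difference between iU1-52 and Col-0 in NaCl was 1.23 and reached 3.17. For 167 of the 168 members, every Col-0 array in NaCl lay below every Col-0 array in MS, against 40.7% of all features. For 145 members, every iU1-52 array in NaCl lay above every Col-0 array in NaCl, against 28.9% of all features, and the thresholds on the means lie behind both counts. At the first threshold, the members just inside were SIS at -1.01 and NADP-ME2 at -1.02, and the features just outside were AT3G54730 at -0.999 and HFR1 at -0.993. At the second threshold, PDC3 and the probe A_84_P17941 were just inside, both at 1.01, and SEN1 and TPS12 were just outside, both at 0.998.

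**Figure D1:**
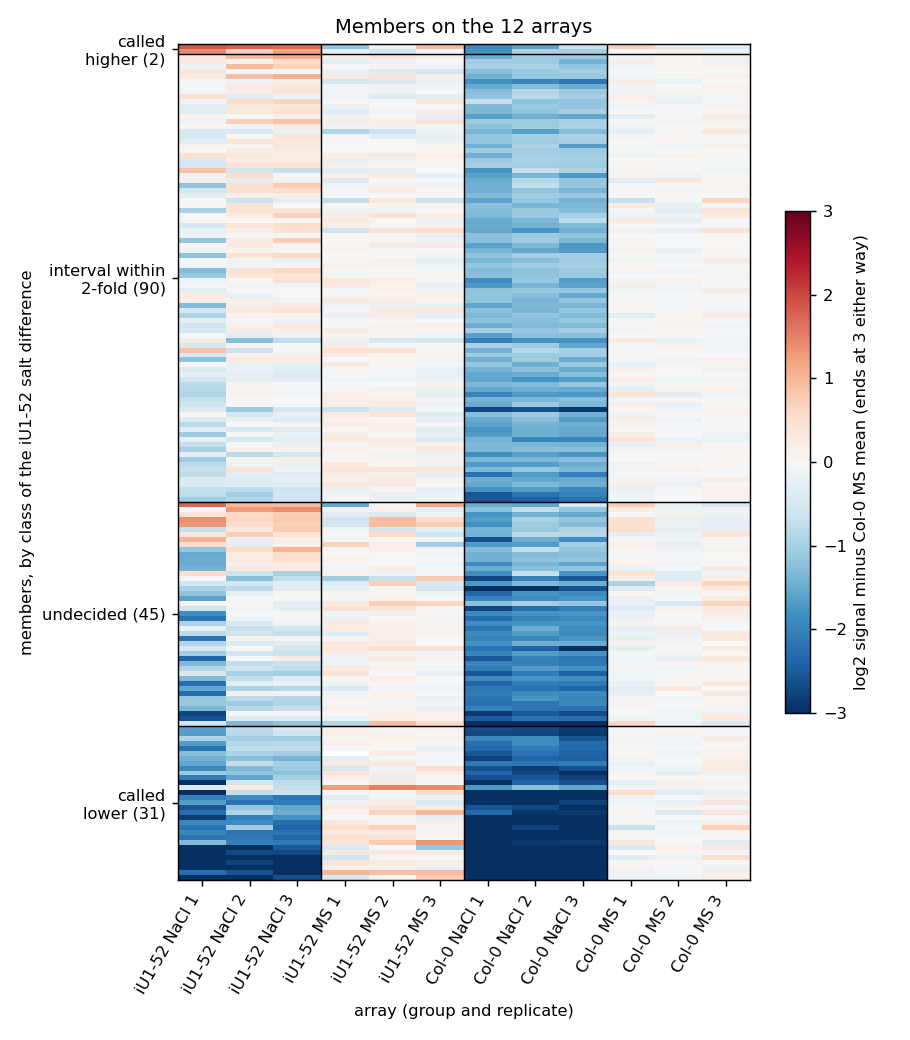
Heat map of the 168 members (rows, grouped by the class of their salt difference in iU1-52) on the 12 arrays (columns), as log2 signal minus the mean of Col-0 in MS, with colours ending at 3 either way. The Col-0 arrays in NaCl are low throughout, as the choice of members requires. The iU1-52 arrays in NaCl are mostly near the level of MS for the 90 members of the second block and low for the 31 of the last block. For 12 of the 90, replicate 1 of iU1-52 in NaCl is more than 1 unit below both other arrays of its group.

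The thresholds did not use the iU1-52 arrays in MS, although the filter on background and the choice of the brightest probe used all 12 arrays. The iU1-52 arrays in MS are the reference here for whether iU1-52 on salt stayed at its own level. The difference of iU1-52 in NaCl minus iU1-52 in MS was estimated with limma over all features, with Benjamini-Hochberg adjustment. It shares the iU1-52 arrays in NaCl with the second threshold. That threshold kept features with high signals on those arrays, so the shares of members below are not an independent reading. Calls required at least a 2-fold difference and an adjusted p under 0.05. For 90 of the 168 members (53.6%) the 95% interval of this difference lay within 2-fold, against 63.7% of all features. A further 31 members (18.5%) were called lower with salt, against 12.5% of all features, and 2 members were called higher, against 12.1% of all features. The other 45 members (26.8%) were undecided, against 11.8% of all features, because they were not called and their interval reached past 2-fold. The median SD between replicates of iU1-52 in NaCl was 0.39 for the members and 0.21 for all features. In the other groups it was 0.14 to 0.16 for the members. The fit takes 1 spread per feature from all groups, so an interval can be too narrow where iU1-52 in NaCl varied most. Fitted on only the 6 arrays compared, 75 members (44.6%) had an interval within 2-fold, and with array weights 104 (61.9%). The shares of all features in those 2 fits are not given here. By the order of the arrays, every iU1-52 array in NaCl lay below every iU1-52 array in MS for 62 members, against 30.8% of all features. Every array in NaCl lay above every array in MS for 8 members, against 36.8% of all features, and the groups overlapped for 98 members.

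The median salt difference of the members in iU1-52 was -0.31, with quartiles at -0.85 and 0.04 (all features, median 0.06). It was below 0 for 72.6% of the members, against 46.4% of all features. The 2345 other features that met the threshold in Col-0 had a median of -1.55 in iU1-52. Of those, 75.6% were called lower in iU1-52 and 236 had an interval within 2-fold, but the second threshold separates them from the members on the same iU1-52 arrays.

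The thresholds tie these classes to the fall in Col-0. With nearly equal levels in MS and similar line differences in NaCl, a member can be called lower in iU1-52 only where its fall in Col-0 was deep, so the following medians are a description. The members called lower in iU1-52 had a median difference of -1.86 with salt in iU1-52 and -3.02 in Col-0. The members with an interval within 2-fold had medians of -0.10 in iU1-52 and -1.30 in Col-0. The undecided members lay between, with medians of -0.64 in iU1-52 and -1.87 in Col-0.

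**Figure D2:**
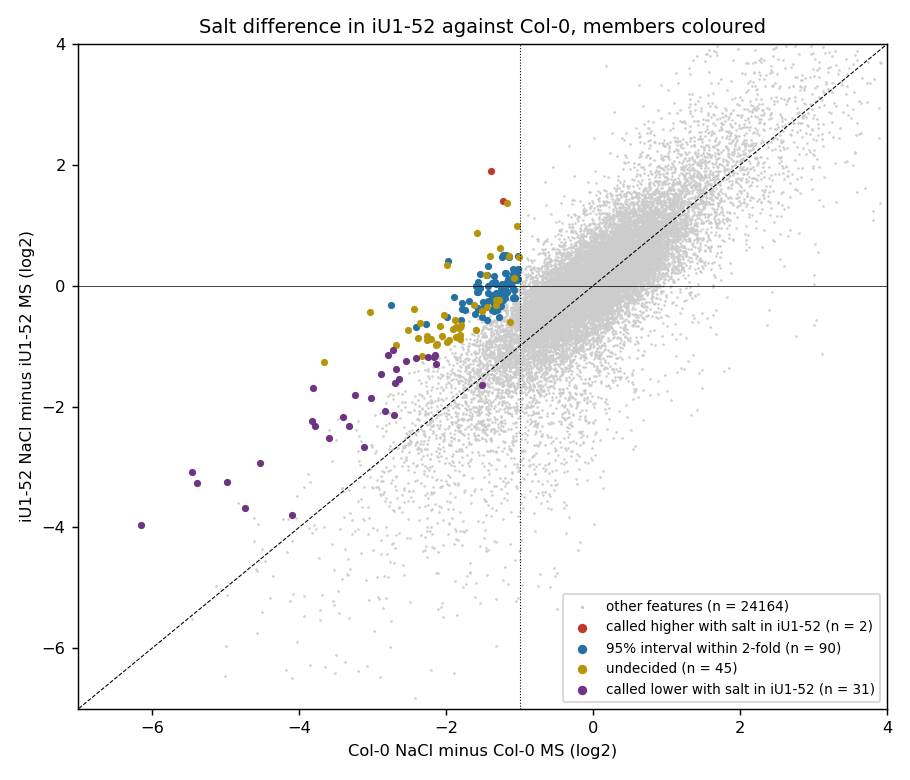
Salt difference in iU1-52 (vertical axis) against that in Col-0 (horizontal axis), both as log2 NaCl minus MS, with 1 point per feature, members coloured by class and other features grey. The dashed line marks equal differences, the dotted line the threshold of -1 in Col-0, and features outside the range of -7 to 4 are not drawn. The members lie above the dashed line except at 1 point, AT1G45015, and the 31 members called lower reach -3.96 in iU1-52.

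Genes that promote organ growth were among the members that were not called lower with salt in iU1-52. ARGOS, ARL and ORS1 encode small related proteins that enlarge lateral organs, and CYP78A6 is a cytochrome P450 that promotes seed and organ growth. ORS1 had log2 signals of 10.59, 10.47 and 10.75 in iU1-52 in NaCl and 10.02, 10.15 and 10.41 in iU1-52 in MS. In Col-0 it had 8.79, 8.63 and 8.41 in NaCl and 10.77, 10.38 and 10.60 in MS. All 3 iU1-52 arrays in NaCl were thus above those in MS, whereas in Col-0 the arrays in NaCl were far below those in MS. The salt difference of ORS1 in iU1-52 was 0.41 (SE 0.14, limma adjusted p = 0.021), under 2-fold, and in Col-0 it was -1.97.

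ARGOS had log2 signals of 10.65, 10.58 and 10.78 in iU1-52 in NaCl and 10.49, 10.58 and 10.33 in iU1-52 in MS, so the groups met at 10.58. Its signals in Col-0 were 8.97, 9.16 and 9.06 in NaCl and 10.33, 10.67 and 10.80 in MS. The salt difference in iU1-52 was 0.20, with a 95% interval of -0.06 to 0.46. ARL was brighter, with means of 13.51 ± 0.07 in iU1-52 in NaCl and 14.08 ± 0.16 in iU1-52 in MS, and of 12.41 ± 0.15 in Col-0 in NaCl and 14.21 ± 0.16 in Col-0 in MS (SD, n = 3 each). Its salt difference in iU1-52 was -0.57 (limma adjusted p = 0.00091), under 2-fold. Among 13 features matched by name to organ size regulators, a list put together after the values had been seen, these 3 and CYP78A6 were members, while 1 feature was called lower and 3 higher with salt in iU1-52. Relatives of CYP78A6 outside the members had other values, with -1.93 in iU1-52 for CYP78A8 (limma adjusted p = 2.5e-07), -0.96 for CYP78A9 and 1.38 for CYP78A7.

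CYP78A6 was 1 of the 2 members called higher with salt in iU1-52. Its log2 signals were 10.50, 9.78 and 10.29 in iU1-52 in NaCl and 8.78, 8.52 and 9.06 in iU1-52 in MS, with no overlap. In Col-0 they were 7.30, 8.16 and 8.12 in NaCl and 9.12, 9.24 and 8.90 in MS, again with no overlap and in the other direction. The salt difference of CYP78A6 was 1.40 in iU1-52 (SE 0.25, limma adjusted p = 0.00044) and -1.23 in Col-0. The other member called higher was the probe A_84_P763570, which has no gene match here. It had 9.50, 9.42 and 9.34 in iU1-52 in NaCl, against a mean of 7.51 ± 1.08 in iU1-52 in MS (SD, n = 3), a difference of 1.90 (SE 0.49, limma adjusted p = 0.0055) between a narrow and a wide group. This call was lost without replicate 2 of all groups, where its adjusted p was 0.069.

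Genes of low oxygen responses and fermentation also appeared. Plants short of oxygen make ethanol through pyruvate decarboxylase, and plant cysteine oxidases mark the transcription factors of this response for degradation while oxygen is present. AT3G10040 (HRA1), a trihelix factor that attenuates the response, had log2 signals of 13.72, 13.71 and 13.96 in iU1-52 in NaCl and 13.61, 13.61 and 13.66 in iU1-52 in MS. Its signals in Col-0 were 12.17, 12.71 and 11.93 in NaCl and 13.58, 13.48 and 13.79 in MS. Only the Col-0 group in NaCl stood apart for this gene, and the salt difference in iU1-52 was 0.17 with a 95% interval of -0.21 to 0.54. AT5G39890 (PCO2), a plant cysteine oxidase, had means of 13.08 ± 0.23 in iU1-52 in NaCl and 13.19 ± 0.03 in iU1-52 in MS, and of 11.76 ± 0.18 in Col-0 in NaCl and 13.08 ± 0.05 in Col-0 in MS (SD, n = 3 each).

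The pyruvate decarboxylase genes differed among themselves. AT4G33070 (PDC1) had log2 signals of 12.57, 13.45 and 13.76 in iU1-52 in NaCl and 14.38, 14.26 and 14.33 in iU1-52 in MS. It had 11.53, 11.52 and 11.38 in Col-0 in NaCl and 14.18, 14.24 and 14.18 in Col-0 in MS. The iU1-52 arrays in NaCl thus lay between the Col-0 groups, and PDC1 was called lower in iU1-52 by -1.06 (SE 0.23, limma adjusted p = 0.0017), against -2.72 in Col-0. PDC3 had a difference of -0.88 in iU1-52, with a 95% interval of -1.29 to -0.47, and was undecided. Its neighbour AT5G01320 was called lower in iU1-52 by -1.14 (limma adjusted p = 0.00064), against -2.79 in Col-0. PDC2, which is not a member, had -0.33 in iU1-52 and -1.05 in Col-0. ETR2, an ethylene receptor that also belongs to this list, kept its level in iU1-52 with a difference of 0.14 and an interval of -0.03 to 0.30. Of 19 features matched to hypoxia and fermentation names, again a list made after the values had been seen, 5 were members, while 4 of the 19 were called lower with salt in iU1-52 and 0 higher. SUS4, a sucrose synthase outside the members, was lower with salt in both lines, with a difference of -3.95 in iU1-52 (limma adjusted p = 1.9e-08) and -4.56 in Col-0.

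Wall genes of xylem formed another named group. Secondary walls of xylem are built from cellulose made by 3 dedicated cellulose synthases, from xylan and from lignin. IRX1 and IRX3, which are 2 of these cellulose synthases, GAUT12, IRX15 and PGSIP1, which act in xylan synthesis or substitution, the laccase LAC11 of lignin formation, TED7 and the vessel regulator ANAC026 were members. IRX15 had log2 signals of 7.46, 7.42 and 7.44 in iU1-52 in NaCl and 7.74, 7.61 and 7.28 in iU1-52 in MS, which overlap. In Col-0 it had 5.78, 6.12 and 5.91 in NaCl and 7.69, 7.37 and 7.47 in MS. Its salt difference in iU1-52 was -0.11, with an interval of -0.39 to 0.18. ANAC026 had a difference of -0.02 and an interval of -0.22 to 0.18, and GAUT12 one of -0.57 with an interval of -0.82 to -0.33.

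The cellulose synthases lay lower. IRX1 had 9.56, 10.04 and 9.95 in iU1-52 in NaCl, against 10.76, 10.73 and 10.51 in iU1-52 in MS. It had 8.64, 8.94 and 8.83 in Col-0 in NaCl, against 10.64, 10.52 and 10.68 in Col-0 in MS. None of the 4 groups overlapped except those in MS. The salt difference of IRX1 in iU1-52 was -0.82 (SE 0.13, limma adjusted p = 0.00019), which passes the adjusted p and not the fold, and for IRX3 it was -0.73 (limma adjusted p = 0.0011). PGSIP1 and TED7 had differences of -0.84 and -0.93, so that 4 of the 8 members of this group had an interval within 2-fold and 4 were undecided. CESA4, the partner of IRX1 and IRX3 in the cellulose synthase complex, narrowly missed the second threshold, at 0.88, with a salt difference of -0.95 in iU1-52 and -1.80 in Col-0. Over 53 features matched to secondary wall names after the values had been seen, 6 were called lower and 4 higher with salt in iU1-52, and 0 of these were members. Among those called lower were FLA12, with -2.90 in iU1-52 and -3.55 in Col-0, FLA11, with -1.93 in iU1-52 and -2.19 in Col-0, and MYB58, with -1.52 in iU1-52 and -1.47 in Col-0. In the wider list of pectin and cell wall enzymes, 5 features (4.42%) were members, 19 were called lower with salt in iU1-52 and 12 higher. JP630 of that list had means of 7.36 ± 0.26 in iU1-52 in NaCl and 7.97 ± 0.20 in iU1-52 in MS, and of 5.32 ± 0.34 in Col-0 in NaCl and 7.67 ± 0.35 in Col-0 in MS (SD, n = 3 each).

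Members with deep falls in Col-0 are described next, and that their difference in iU1-52 was smaller follows from the second threshold. AACT1, an acyltransferase, had log2 signals of 8.34, 8.51 and 10.24 in iU1-52 in NaCl, against 12.44, 12.90 and 13.63 in iU1-52 in MS. In Col-0 it had 7.36, 5.82 and 7.03 in NaCl, against 12.78, 12.78 and 13.08 in MS. AACT1 fell by 3.96 in iU1-52 (SE 0.52, limma adjusted p = 4.6e-05), and its difference in Col-0 was -6.14. MYB90, an activator of anthocyanin genes, was undecided, with 8.59, 7.40 and 7.90 in iU1-52 in NaCl and 7.61, 7.98 and 9.43 in iU1-52 in MS. Its groups in iU1-52 overlapped, while in Col-0 it had 5.91, 6.63 and 6.09 in NaCl and 8.85, 8.24 and 8.85 in MS.

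NIP2;1, an aquaporin-like channel of the NOD26 family, had 7.80, 8.19 and 7.96 in iU1-52 in NaCl, against 11.33, 11.26 and 11.16 in iU1-52 in MS. It had 5.63, 5.84 and 5.23 in Col-0 in NaCl, against 10.92, 11.01 and 10.94 in Col-0 in MS. The groups with salt and without salt were far apart in both lines, and NIP2;1 fell by 3.26 in iU1-52 (SE 0.14, limma adjusted p = 9e-09), with -5.39 in Col-0. TIP2;3, a water channel of the vacuolar membrane, fell by 2.32 in iU1-52 (limma adjusted p = 0.0005), with -3.32 in Col-0. These were the 2 members among 53 features of aquaporins, of which 11 were called lower and 13 higher with salt in iU1-52. AT2G29870, which has no further annotation here, followed NIP2;1 closely, with a difference of -3.09 in iU1-52 and -5.45 in Col-0. Whether the probes of AT2G29870 and NIP2;1 hybridize to each other's transcripts was not tested.

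SRO4, a relative of the stress regulator RCD1, had 9.21, 9.27 and 8.90 in iU1-52 in NaCl, against 11.46, 11.27 and 11.36 in iU1-52 in MS. It had 7.89, 7.39 and 6.71 in Col-0 in NaCl, against 11.20, 10.94 and 11.32 in Col-0 in MS. The iU1-52 arrays in NaCl lay between the Col-0 groups, and SRO4 fell by 2.23 in iU1-52 (SE 0.24, limma adjusted p = 9.1e-06), with -3.82 in Col-0. AT5G44260 (TZF5), a CCCH zinc finger protein, had a difference of -3.03 in Col-0 and was undecided in iU1-52. It had 9.63, 9.82 and 10.25 in iU1-52 in NaCl and 10.34, 10.63 and 10.04 in iU1-52 in MS, which overlap, and 7.05, 7.64 and 8.00 in Col-0 in NaCl and 10.21, 10.69 and 10.90 in Col-0 in MS. AT4G37700 and AT1G15125, with no further annotation here, were called lower in iU1-52 too, with -3.79 in iU1-52 and -4.10 in Col-0 for AT4G37700, and -3.24 in iU1-52 and -4.98 in Col-0 for AT1G15125.

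Carriers for nutrients were divided. SULTR3;1, a sulfate transporter, had 6.82, 7.56 and 7.69 in iU1-52 in NaCl, against 11.18, 11.12 and 10.78 in iU1-52 in MS. It had 6.23, 6.39 and 6.21 in Col-0 in NaCl, against 11.15, 11.03 and 10.86 in Col-0 in MS. It fell by 3.67 in iU1-52 (SE 0.20, limma adjusted p = 4.5e-08), with -4.74 in Col-0, and the lowest iU1-52 array in NaCl was less than 1 unit above the Col-0 arrays. NRT1.1, the nitrate transporter and nitrate sensor, was among the brightest members, with 14.83, 15.70 and 15.57 in iU1-52 in NaCl and 15.60, 15.59 and 15.70 in iU1-52 in MS. In Col-0 NRT1.1 had 14.25, 14.28 and 14.44 in NaCl and 15.50, 15.67 and 15.65 in MS. Its difference in iU1-52 was -0.26 with an interval of -0.67 to 0.14. The amino acid transporter CAT2 had a difference of 0.17 with an interval of -0.19 to 0.52, and the oligopeptide transporter OPT4 one of -0.27 with an interval of -0.76 to 0.21. Among 84 features for nitrate, ammonium, sulfate and phosphate transport, 21 were called lower and 16 higher with salt in iU1-52.

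**Figure D3:**
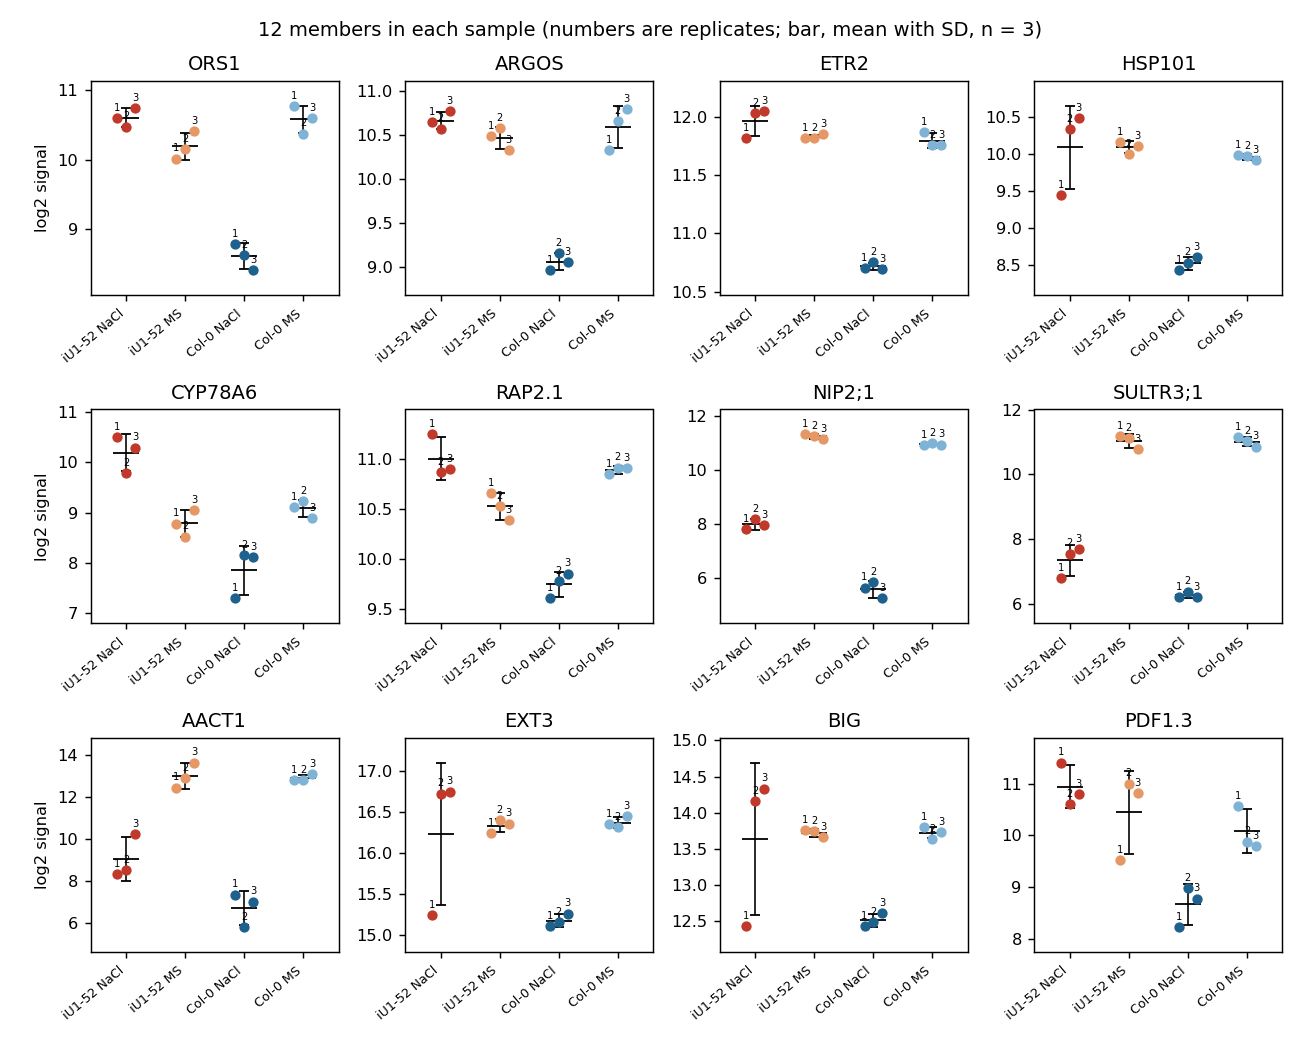
Log2 signal of 12 members in each sample, by group, with replicate numbers beside the points and bars for the mean with SD (n = 3), each panel on its own scale. ORS1, ARGOS and ETR2 on salt are near their MS level in iU1-52, NIP2;1, SULTR3;1 and AACT1 are lower in NaCl than in MS in both lines, and EXT3 and BIG have replicate 1 of iU1-52 in NaCl near the Col-0 arrays in NaCl.

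Members with roles in hormone pathways were few and fell in different classes. IAA29, an Aux/IAA repressor of auxin responses, fell by 2.93 in iU1-52 (SE 0.51, limma adjusted p = 0.00039), with -4.53 in Col-0. Its iU1-52 signals in NaCl of 5.81, 6.39 and 7.55 overlapped those of Col-0 in NaCl, which were 6.47, 5.40 and 4.74. WES1, a GH3 enzyme that conjugates auxin to amino acids, had a difference of -0.13 in iU1-52 with an interval of -0.71 to 0.45. LOG5, which releases active cytokinin, had 9.91, 9.42 and 9.36 in iU1-52 in NaCl and 10.78, 10.40 and 10.11 in iU1-52 in MS, against 7.83, 8.30 and 7.94 in Col-0 in NaCl and 10.29, 10.44 and 10.47 in Col-0 in MS. The iU1-52 groups were separate and 0.87 apart, so LOG5 passed the adjusted p (limma, 0.0019) and not the fold. Of 128 auxin features, 42 were called lower and 21 higher with salt in iU1-52, and of 51 cytokinin features 7 were called lower and 8 higher.

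RAP2.1, an AP2-type repressor of stress genes, had 11.25, 10.87 and 10.90 in iU1-52 in NaCl and 10.66, 10.53 and 10.39 in iU1-52 in MS. In Col-0 it had 9.61, 9.78 and 9.86 in NaCl and 10.85, 10.92 and 10.91 in MS. Its difference in iU1-52 was 0.48 (SE 0.11, limma adjusted p = 0.0031), under 2-fold, and -1.14 in Col-0. The 2 other probes of RAP2.1 had smaller differences in iU1-52, 0.17 and 0.19. JAZ4, a repressor of jasmonate responses, was represented by 2 features of different accessions, with differences of -0.13 and -0.15 in iU1-52 and intervals within 2-fold. RAP2.1 and ETR2 were the members among 60 ethylene features, of which 8 were called lower and 19 higher with salt in iU1-52, and JAZ4 was the member among 42 jasmonate features, of which 11 were called lower and 16 higher.

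Most of the defense members were spread widely between replicates. PDF1.3, PDF1.2c and PDF1.2b encode plant defensins, small antimicrobial proteins of the jasmonate and ethylene responses. PDF1.2b had log2 signals of 8.38, 7.64 and 7.78 in iU1-52 in NaCl and 8.11, 9.91 and 9.56 in iU1-52 in MS. It had 4.29, 5.98 and 5.65 in Col-0 in NaCl and 9.59, 8.77 and 8.52 in Col-0 in MS. The iU1-52 groups overlapped and the Col-0 groups did not. PDF1.2b had the largest difference between the lines of the 3, 2.63, but its salt difference in iU1-52 of -1.26 was not called (limma adjusted p = 0.053). Under 75th percentile scaling it was -1.34 and called (limma adjusted p = 0.042), and without replicate 1 of iU1-52 in MS it was -1.80 (limma adjusted p = 0.0082). PDF1.3 and PDF1.2c were brighter, with salt differences in iU1-52 of 0.49 and 0.62 that were not called. PDF1.3 and PDF1.2b are neighbouring genes, and hybridization of near-identical defensin transcripts to each other's probes was not tested. NIMIN1, which binds the salicylic acid regulator NPR1, had means of 7.24 ± 0.33 in iU1-52 in NaCl and 7.98 ± 0.08 in iU1-52 in MS, and of 5.06 ± 0.42 in Col-0 in NaCl and 7.58 ± 0.28 in Col-0 in MS (SD, n = 3 each). All 4 defense members were undecided, in a list of 166 features of which 24 were called lower and 41 higher with salt in iU1-52.

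Chaperones were represented by HSP101, which dissolves protein aggregates after heat, and by 2 features of the co-chaperone Hop3. HSP101 had 9.44, 10.33 and 10.48 in iU1-52 in NaCl and a mean of 10.09 ± 0.08 in iU1-52 in MS (SD, n = 3), and 8.43, 8.53 and 8.60 in Col-0 in NaCl and 9.98, 9.97 and 9.91 in Col-0 in MS. The iU1-52 arrays in NaCl lay on either side of that mean, with a difference of -0.0017 and an interval of -0.47 to 0.46. HSP101 was the only member in a list of 75 features for heat shock and folding in the endoplasmic reticulum, of which 2 were called lower and 12 higher with salt in iU1-52. The homeodomain factor HB21 had a difference of 0.07 with an interval of -0.35 to 0.49. CYP81F4, a P450 of indole glucosinolate synthesis, had -0.51 with an interval of -0.99 to -0.03, and CYP706A2 had -0.83 with an interval of -1.16 to -0.50.

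Of the 168 members, 33 were in at least 1 of the 30 gene lists and 135 were in none. Besides the lists given above, they fell in those of extensins and related wall proteins (4 members), cytochromes P450 (3), growth regulators of the MYB, HD-Zip and other families (3), sugar, amino acid and peptide transport (2), glucosinolates (1) and phenylpropanoids (1). No member was found among 84 features of ribosomal proteins, 73 of the cell cycle, 68 of photosystems and light harvesting, 60 of abscisic acid and 18 of seed storage and late embryogenesis proteins. Over all features tested, 0.69% were members.

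**Figure D4:**
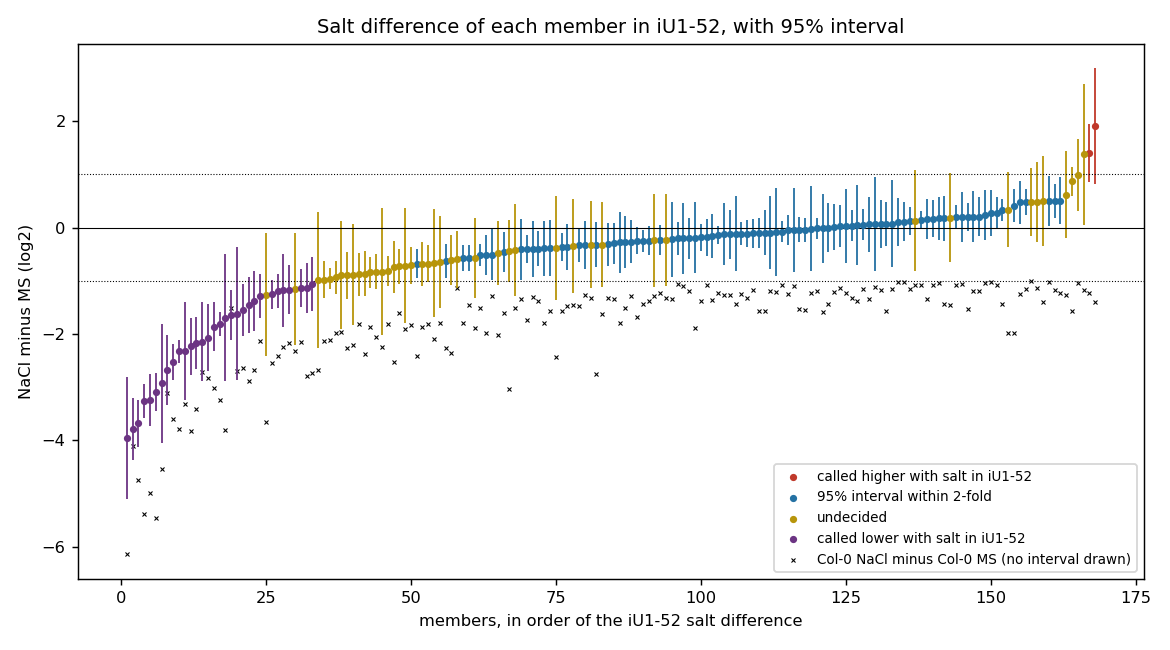
Salt difference of each member in iU1-52 (points, log2 NaCl minus MS) with its 95% interval from limma, in order of size and coloured by class, and the same difference in Col-0 as crosses. The crosses lie at or below -1 by the choice of members, and 90 intervals lie between the dotted lines at -1 and 1.

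In MS the members differed little between the lines. The comparison of iU1-52 with Col-0 in MS shares the Col-0 arrays in MS with the first threshold. By limma with the same rule, 1 of the 168 members was called, against 0.267% of all features. An unadjusted p under 0.05 was found for 8 members (4.76%), against 5.76% of all features, and the interval lay within 2-fold for 142 members (84.5%), against 96.5% of all features. The fit takes 1 spread per feature from all 4 groups, so both counts also take in the spread of iU1-52 in NaCl. AT2G43150 had SDs of 0.078 in iU1-52 and 0.13 in Col-0 in MS, and of 1.61 in iU1-52 in NaCl. Its interval for the difference in MS was -1.19 to 1.36. The 2 counts are thus not a reading of the MS arrays alone. The median difference of the members in MS was 0.02. The member called was AT1G45015, with 9.79, 10.07 and 9.97 in iU1-52 in MS, against 8.45, 8.63 and 8.58 in Col-0 in MS. Its difference of 1.39 (SE 0.21, limma adjusted p = 0.02) was not called without any 1 of the Col-0 arrays in MS or without replicate 2 or 3 of iU1-52 in MS, with adjusted p from 0.065 to 0.1. AT1G45015 had 8.17, 8.85 and 7.85 in iU1-52 in NaCl and 6.84, 7.28 and 6.99 in Col-0 in NaCl, so it fell by 1.65 in iU1-52 (limma adjusted p = 4e-05), with -1.52 in Col-0, and its line difference in NaCl of 1.25 was close to that in MS. It was the only member below the line of equal salt differences. The next highest differences in MS were 0.95 for AT4G37700 and 0.82 for AT3G61400, and the lowest were -0.56 for IAA29 and -0.55 for AT1G27020, none of them called.

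Replicate 1 of iU1-52 in NaCl stood apart from replicates 2 and 3. Its 75th percentile of the deposited signal was 2512, against 3882 and 3938, and for the median member it lay below the mean of the other arrays of its group (a difference of -0.42). Array weights fitted over the features gave this array 0.054, against 0.61 to 2.75 for the others. The median member differed from its own mean in iU1-52 in MS by -0.71 on this array, by -0.13 on replicate 2 and by -0.10 on replicate 3. On the single arrays, 87 members in replicate 1, 154 in replicate 2 and 157 in replicate 3 were at least 1 above the Col-0 mean in NaCl, and 70 members were so on all 3. These counts rest on the difference that chose the members and were not made over all features. Without replicate 1 of iU1-52 in NaCl, 63.7% of the 168 members had an interval within 2-fold, 27 were called lower and 3 higher, and the median salt difference was -0.10. The shares of all features without this array are not given here. The equal share of 63.7% for all features, given above, came from the fit with every array. These equal shares therefore cannot be compared. When the members were chosen anew without replicate 1 of iU1-52 in NaCl, 271 features met the thresholds, of which 158 were among the 168.

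For 32 members replicate 1 was more than 1 unit below both other arrays of its group, and for 21 of these it was not above the highest Col-0 array in NaCl. These counts were not made over all features. Extensins, hydroxyproline-rich proteins that are crosslinked in the wall, were among the 32 members. EXT3 had 15.24, 16.72 and 16.75 in iU1-52 in NaCl and 16.24, 16.40 and 16.36 in iU1-52 in MS, and 15.11, 15.17 and 15.26 in Col-0 in NaCl and 16.35, 16.31 and 16.45 in Col-0 in MS. EXT6 had 8.38, 10.54 and 10.57 in iU1-52 in NaCl, with a mean of 10.73 ± 0.11 in iU1-52 in MS, and a mean of 8.72 ± 0.11 in Col-0 in NaCl and 10.69 ± 0.27 in Col-0 in MS (SD, n = 3 each). HRGP1 and EXT10 were alike, with replicate 1 at 8.27 and 7.91 and the other arrays of iU1-52 in NaCl at 9.97 or 9.98 for HRGP1 and at 9.70 or 9.78 for EXT10. In these 4 genes replicate 1 was near the Col-0 level in NaCl, and the other arrays were near the level in MS. Of 82 features in the list of extensins, arabinogalactan and proline-rich proteins, 39 were called lower and 9 higher with salt in iU1-52. Their median difference was -0.65, and the 4 genes above were the members in that list. Members named by locus alone, such as AT1G26250, AT3G54580 and AT5G06630, are not in the list and may be of the same family. HRGP1 is a neighbour of the member AT3G54580, and EXT10 of the member AT5G06630, and since extensins share repeats, their probes may not separate the genes. AT1G26250 was called lower by -1.69 (limma adjusted p = 0.017) with this array and had a difference of -0.87 without it, and the call was also lost without replicate 3 of iU1-52 in MS (limma adjusted p = 0.057).

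Replicate 1 was low for long genes too. Of 146 members matched to a gene, 6 (4.11%) were longer than 8000 bases in TAIR10.1, against 1.26% of all matched features, and replicate 1 was more than 1 unit low in each of the 6. By median length the members were not longer, at 2185.5 bases against 2366 for all matched features. BIG, a very large protein needed for auxin transport, had 12.43, 14.16 and 14.33 in iU1-52 in NaCl and 13.76, 13.75 and 13.66 in iU1-52 in MS, and 12.43, 12.50 and 12.61 in Col-0 in NaCl and 13.80, 13.64 and 13.73 in Col-0 in MS. The ubiquitin ligase UPL2, the chromatin remodeller SYD and AT2G17930 had the same split between replicate 1 and the other arrays of iU1-52 in NaCl. Over all 260 features of genes this long, the median distance from the Col-0 mean in MS was -0.75 on replicate 1 of iU1-52 in NaCl, and 0.16 and 0.23 on replicates 2 and 3. It was -0.70, -0.64 and -0.61 on the Col-0 arrays in NaCl. The long genes of the whole array thus were low on the 3 Col-0 arrays in NaCl and on replicate 1 of iU1-52 in NaCl, and their part in the pattern of the members was not tested.

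**Figure D5:**
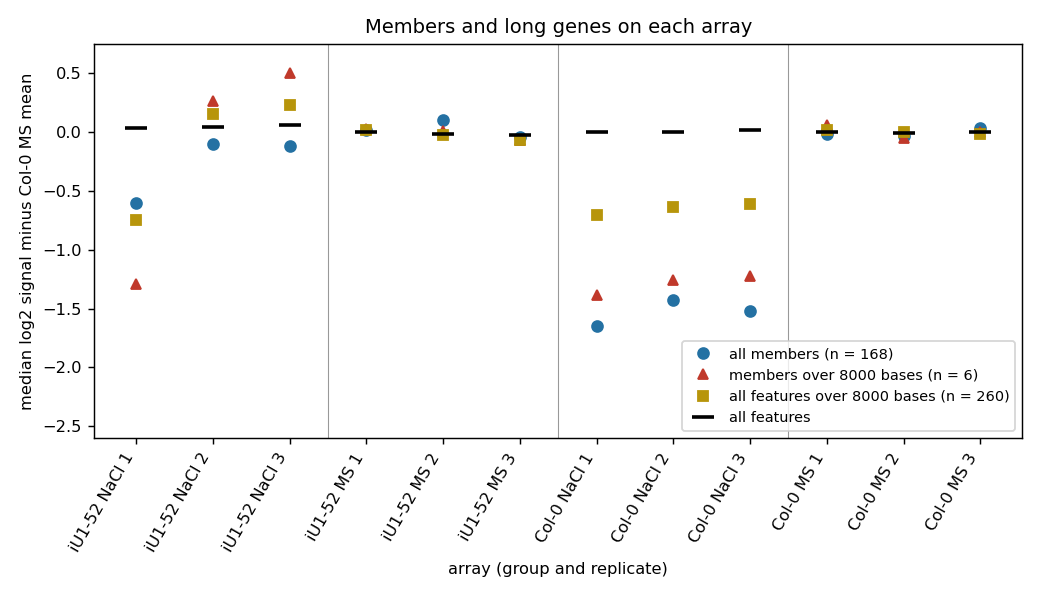
Median log2 signal minus the Col-0 mean in MS on each of the 12 arrays for the members (circles), the 6 members over 8000 bases (triangles), all 260 features over 8000 bases (squares) and all features (bars). Replicate 1 of iU1-52 in NaCl is at -0.60 for the members and at -0.75 for all long genes, and all features stay near 0.

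The thresholds were also applied to 2 replicate numbers and read in the third, with the normalization shared by all arrays. Left out in turn, replicates 2 and 3 gave 166 and 136 chosen features, of which 99 (59.6%) and 95 (69.9%) met both thresholds in the arrays left out. With replicate 1 left out, 247 were chosen and 72 (29.1%) met both. Over all features, 0.797% met both in replicate 1, 0.978% in replicate 2 and 1.23% in replicate 3. For 35 members, 44 other probes of the same accession passed the filter, and 30 of these met both thresholds while all 44 had the same signs. They measure the same RNA and so do not replicate the samples.

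Marker genes of tissues were read beside these results. Of 10 green tissue markers, all passed the filter, 0 were members and 8 were called lower in NaCl between iU1-52 and Col-0, with a summed log2 signal between 19.90 and 20.08 in iU1-52 and between 21.13 and 21.16 in Col-0. All 18 root markers passed, 0 were members and 1, CASP5, was called higher in iU1-52 in NaCl, with summed signals of 15.15 to 15.25 in iU1-52 and 14.92 to 14.99 in Col-0. Of 8 markers of dividing cells, 0 were members and 1 was called lower, with summed signals of 13.54 to 13.96 in iU1-52 and 14.23 to 14.34 in Col-0. Of 11 seed markers only EM6 passed the filter, with a mean log2 signal of 16.81 in iU1-52 and 14.46 in Col-0 in NaCl, against 5.06 in iU1-52 and 4.94 in Col-0 in MS. The part of these shifts in the levels of the members was not tested.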

How the data were processed

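Arrays were Agilent Arabidopsis V4 4x44K, 1 colour. The deposited values are Cy3 spot intensities from Feature Extraction 10.7.1.1, from which the authors' software had subtracted background within each array, without normalization between arrays. The genome build behind the probes is not given in the sources used here. Control and outlier spots were left out, spots of a probe averaged, and the 31522 probes well above background on all 12 arrays quantile normalized and put on the log2 scale. The brightest probe of each accession was kept, with 19 values missing. Names and gene lengths came from TAIR10.1 by accession. 146 members matched 144 loci, and 22 kept a probe ID. One linear model with a mean for each group was fitted over the 12 arrays (limma 3.58.1, R 4.3.3, moderated variances), which was tested on simulated data. The members and gene lists were chosen with earlier results of these data known. The genes named were those with the 10 largest line differences in NaCl or falls in Col-0, the 5 largest differences either way in the other contrasts, those at a threshold and list members. The organ size, hypoxia, secondary wall and long genes were chosen after their values were seen. Between 75.4% and 79.4% of spots were well above background and 0 were saturated, and the number of arrays limits the precision. Other settings tried were 75th percentile scaling, normexp (offset 50, on median pixels), other filters and order of steps, the mean of probes, a replicate block, array weights, no moderation, fewer arrays and other thresholds. Promoter and protein sequences were not analysed here.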

Additional observations from a re-analysis of the deposited data

Results flagged for a closer look

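For 8 members the 3 iU1-52 arrays in NaCl all lay above those in MS, while the 3 Col-0 arrays in NaCl all lay below those in MS (4.76% of the members, against 1.59% of all features). The other members had all iU1-52 arrays in NaCl below those in MS (62) or overlapping groups (98), and of the 8 only A_84_P763570 and CYP78A6 were called higher at 2-fold. This difference between the lines was not tested, since it rests on the arrays that chose the members. The salt differences in iU1-52 were 1.90 for A_84_P763570, 1.40 for CYP78A6, 0.87 for AT4G21323, 0.50 for A_84_P795880, 0.48 for RAP2.1, 0.41 for ORS1, 0.33 for AT4G31020 and 0.17 for AT3G10040. The 2 other probes of RAP2.1 gave 0.17 and 0.19 in iU1-52. In Col-0 the 8 differences were -1.39, -1.23, -1.57, -1.18, -1.14, -1.97, -1.43 and -1.35 in the same order.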

How the results depend on the processing

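The number of members depended on the processing. It was 79 with normexp background correction (78 shared with the 168), 283 with a filter at a signal of 100 on at least 1 array (162 shared), 300 with no filter on dim probes (161 shared), 359 with thresholds of 0.8 and 75 with thresholds of 1.2. It was 146 with scaling to the 75th percentile (143 shared). With single arrays or replicate numbers left out it was between 130 and 271, the highest without replicate 1 of iU1-52 in NaCl. The causes were not tested beyond what each setting itself removes or adds. For the 168 members as chosen, leaving out arrays gave 26 to 39 called lower with salt in iU1-52, 1 to 4 called higher, 61 to 112 with an interval within 2-fold, 0 or 1 called in MS and a median salt difference in iU1-52 of -0.45 to -0.10. With the adjusted p alone, 58 were called lower and 10 higher with salt in iU1-52. Without moderation of the variances, 0 were called in MS. The other alternatives kept each of these counts within 1.5 times. With the replicate block, 32 were called lower, 2 higher and 91 had an interval within 2-fold. The main fit did not take the replicate numbers as pairs, although each number was 1 slide. Correlations of same-numbered deviations ran from -0.07 to 0.32, against -0.40 to 0.29 for different numbers in different groups. Single genes were recomputed for 48 of those named, which leaves out others named above, such as PDC1, ARGOS, ARL and BIG. For these 48 genes, no called difference changed sign, 16 of the values recomputed were no longer called and 32 became called.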
